A study of Mus musculus with 76 samples.

Results

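Medullary thymic epithelial cells (mTECs) sorted from the thymus of SOD1-G93A mice at day 30 were compared with mTECs sorted from wild-type mice of the same day. The comparison uses 6 of the 76 samples of the series, 3 from SOD1-G93A thymus (SOD1 1, SOD1 2 and SOD1 3) and 3 from wild-type thymus (WT 1, WT 2 and WT 3), chosen by population, day and genotype in the sample titles. The labels give the genotype as Sod1Mut or WT and write the strain as SOD1-G93A for both. That field alone does not show that the WT animals share the line or background of the SOD1-G93A animals. Both groups had the thymus digested, stained and sorted, and their RNA was copied with a SMARTseq v4 kit for low input. No treatment is named, and the sex and number of animals, any pooling and the sorting gate are not stated. Nothing says that the 3 libraries of a group came from separate animals, so the p-values measure the spread between these libraries, which may be technical. The series asks about the thymus in a mouse model of amyotrophic lateral sclerosis (ALS), and this comparison asks how mTECs of the model differ from wild-type mTECs at an early age.

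SOD1 is the cytosolic copper and zinc superoxide dismutase, and G93A, glycine to alanine at residue 93, is a dominant ALS mutation. SOD1-G93A mice commonly carry a human transgene with this mutation and are known for loss of motor neurons. mTECs show self antigens to developing T cells. Aire and Fezf2 drive the expression of a large set of genes otherwise limited to other tissues, T cells that bind these antigens are removed or become regulatory T cells, and some mTECs become mimetic cells that resemble tuft, microfold, skin, gut or muscle cells. RANK, CD40 and lymphotoxin receptor signals sustain mTECs, and Ccl21 and Ccl19 guide thymocytes into the medulla.

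The mouse Sod1 row checks the labels. Sod1 (ENSMUSG00000022982.10) lies at chr16:90220754-90226329 on the plus strand of GRCm38, and Gm8566 (ENSMUSG00000047905.10) is annotated as a processed pseudogene at chr6:67205619-67206083, also on the plus strand. The coding sequence of Sod1, joined from 5 exons, and the annotated exon of Gm8566 are both 465 bases long. They were identical at 455 positions (97.8%), with no gap and 10 differences, and the longest stretch with no difference was 122 bases.

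Library depth differed widely before any test. The 3 SOD1 libraries had 15135, 19667203 and 4045886 counts, against 6824260, 9678277 and 3268506 counts in the WT libraries. SOD1 1 is therefore very shallow: 1 count there equals 66.1 CPM, the unit in which counts are scaled to their library total, and a gene with no count there could still lie at up to 198 CPM, the level of 3 counts. It had 5556 genes with a count, whereas the other 5 libraries had between 24906 and 30293. Of the 4324 genes averaging at least 50 CPM, 29.2% had no count in SOD1 1. Across genes, which are not independent replicates, the correlation of log2(CPM + 1) with the other libraries was 0.576 to 0.583 for SOD1 1 and 0.930 to 0.951 among the other 5. Where SOD1 1 holds few counts of a gene, its place above or below the WT libraries says little, since 1 count moves it by 66.1 CPM. Each result below that rests on SOD1 1 is given with and without it, and levels are CPM over the library total unless a fold change is named.

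**Figure D1:**
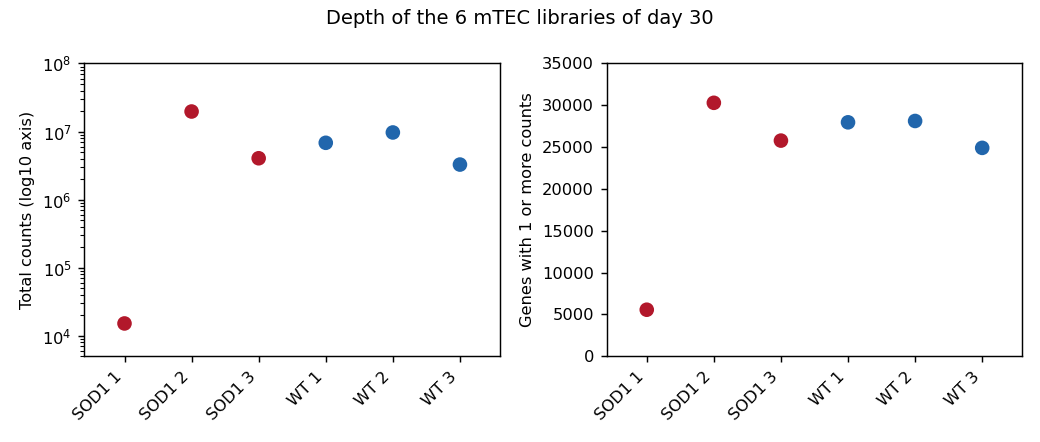
Total counts on a log10 axis (left) and genes with 1 or more counts (right) for the 3 SOD1 and the 3 WT mTEC libraries of day 30, 1 point per library. SOD1 1, with 15135 counts and 5556 genes, lies below the other 5 libraries on both axes.

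The sorted cells carried the markers of mTECs. Aire, at chr10:78030022-78043610, had 1189, 1082 and 780.3 CPM in the SOD1 libraries, against 993, 933 and 1041 CPM in the WT libraries. The value of SOD1 1 stands on 18 counts, with an exact (Clopper-Pearson) 95% interval for counting error of 705 to 1879 CPM, and the genotypes overlapped. The log2 fold change of Aire, SOD1 over WT, was -0.22 ± 0.42 (SE) and -0.03 without SOD1 1, and neither passed the test. The 18 mTEC markers summed to 8788, 11332 and 10375 CPM in SOD1 libraries and 11708, 12372 and 11192 CPM in WT libraries, with 2 of the 18 at 0 in SOD1 1 and none at 0 elsewhere. The 9 cTEC markers, of the cortical epithelium that a sort could also hold, summed to between 1520 and 1646 CPM in SOD1 libraries and between 1651 and 2175 CPM in WT libraries. Their defining members Psmb11 and Prss16 were present, with Prss16 at 132, 131 and 73.9 CPM in SOD1 libraries and 108, 61.0 and 101 CPM in WT libraries. In bulk samples fewer cells of a type and less RNA per cell cannot be told apart.

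RNA of other cells was low in both genotypes. The 14 thymocyte markers summed to 661, 274 and 208 CPM in SOD1 libraries and 210, 157 and 276 CPM in WT libraries, with 10 of the 14 at 0 in SOD1 1. The 15 myeloid and dendritic markers summed to 463, 615 and 564 CPM in SOD1 libraries, against 699, 666 and 574 CPM in WT libraries. B cell markers gave between 54.6 and 69.4 CPM in SOD1 libraries and between 55.1 and 59.2 CPM in WT libraries, and mesenchymal markers between 0 and 174 CPM in SOD1 libraries and between 132 and 167 CPM in WT libraries. These sums overlapped between genotypes. For 2 small lists the sums of SOD1 2 and SOD1 3 lay above those of the WT libraries, while SOD1 1 held a single count of each list and cannot be placed. The 6 erythroid markers summed to 66.1, 90.8 and 148 CPM in SOD1 libraries, against 55.1, 48.7 and 33.3 CPM in WT libraries, and the endothelial ones to 66.1, 55.8 and 53.9 CPM in SOD1 libraries, against 23.9, 31.1 and 50.2 CPM in WT libraries. In the 5 deep libraries 3 of the 4 endothelial markers tested were positive, with a median log2 fold change of 0.52, 2 of them with an unadjusted p under 0.05, and without SOD1 2 the median was 0.05. Tek, the angiopoietin receptor, had 0, 11.5 and 25.5 CPM in SOD1 libraries, against 7.03, 8.06 and 10.1 CPM in WT libraries, whereas Cdh5, which holds vessel cells together, was at most 0.494 CPM in SOD1 libraries and 0.723 CPM in WT libraries. The part of these cells in the results below was not tested.

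Genotype separated the libraries at Sod1 and Gm8566. Sod1 had 66.1, 319.9 and 304 CPM in the SOD1 libraries, against 33.3, 35.4 and 30.6 CPM in the WT libraries. SOD1 2 and SOD1 3 lay far above all WT libraries, whereas the value of SOD1 1 is a single count, with an exact interval of 1.67 to 368 CPM. Its log2 fold change was 2.93 ± 0.52, and it rose in SOD1 mTECs with an adjusted p of 0.000198 by the quasi-likelihood test of edgeR fitted over 12 mTEC libraries of both days. Gm8566 had 396, 122 and 115 CPM in the SOD1 libraries, against 0.586, 0 and 0 CPM in the WT libraries, where WT 1 held 4 counts. Its log2 fold change was 9.27 ± 0.86 with an adjusted p of 4.28e-23 by the same edgeR test, and the 6 counts behind SOD1 1 allow 145 to 863 CPM. How reads shared by near-identical sequences were divided is not given, and the human SOD1 sequence was not used here, so the origin of the reads in these rows was not tested. Without SOD1 1 the log2 fold change was 3.29 for Sod1 and 9.14 for Gm8566. The Sod1 call did not hold when WT 1, WT 2 or WT 3 was left out in turn (log2 fold change 2.91, 2.96 and 2.87, edgeR adjusted p 0.106, 0.0679 and 0.123) or with a dispersion from the trend over genes (2.96, adjusted p 0.802), while the call of Gm8566 held in each of these.

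The same rows separated the genotypes in other libraries of the series. In mTECs of day 120 the log2 fold change of Sod1 was 3.06 ± 0.52 and that of Gm8566 9.96 ± 0.90, and in cortical epithelial cells (cTECs) of day 30 they were 2.88 ± 0.39 and 9.15 ± 0.59. Over all genes 52.4% of log2 fold changes were positive in mTECs of day 120 and 48.9% in cTECs of day 30.

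**Figure D2:**
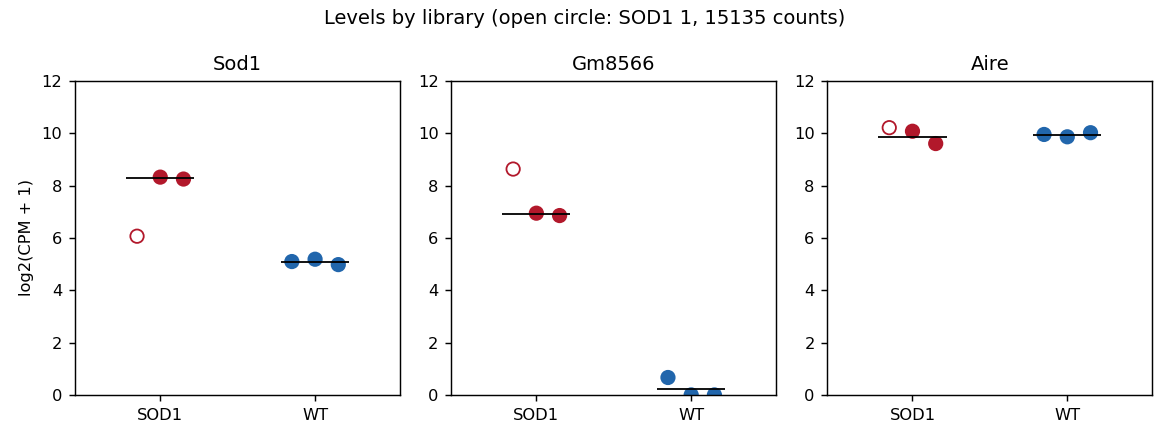
Levels of Sod1, Gm8566 and Aire as log2(CPM + 1), 1 point per mTEC library of day 30, with SOD1 left of WT. Black lines are means of SOD1 2 and SOD1 3 and of the 3 WT libraries, and the open circle is SOD1 1. Sod1 and Gm8566 lie higher in every SOD1 library than in every WT library, though the Sod1 value of SOD1 1 is a single count, and Aire overlaps.

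Beyond these rows no gene passed the test across all genes. Of 18919 genes tested, 2 were called (0.0106%), both higher in SOD1 mTECs, and 110 (0.581%) had an unadjusted p under 0.05, of which 47 were higher (0.248%) and 63 lower (0.333%). Without SOD1 1 the same 2 of 20697 genes were called (0.00966%) and 102 (0.493%) had an unadjusted p under 0.05. Both shares lie well below the share of 0.05 that p-values would give with no difference at any gene. The p-values of this fit thus ran high on these data, and a gene that missed the threshold may still differ. DESeq2 called 4 genes, the same 2 and the predicted genes Gm13370 and Gm8210, both lower. The share of genes with a positive log2 fold change was 41.5% with SOD1 1 and 52.2% without it, and the median over all genes was -0.08 and 0.02. Genes averaging at least 50 CPM had a median SE of 0.43 on the log2 scale. SOD1 2 and SOD1 3 both lay above all WT libraries at 10.6% of genes and both below at 12.3%.

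Among genes with the smallest unadjusted p on the higher side, several took their size from SOD1 1. Rapgef2, an exchange factor for the small GTPase Rap1, had 925, 25.0 and 43.5 CPM in SOD1 libraries, against 21.0, 16.3 and 22.9 CPM in WT libraries. The 925 CPM stand on 14 counts, the edgeR log2 fold change was 2.91 ± 1.0, and without SOD1 1 it was 0.82. Xpo6, an export receptor for actin, had 1123, 85.6 and 105 CPM in SOD1 libraries and 81.2, 77.9 and 74.0 CPM in WT libraries, with a log2 fold change of 1.37 and, without SOD1 1, 0.35. Rell1, Fam45a, Ptprd and the antigen-trimming peptidase Erap1 followed the same pattern, with log2 fold changes of 1.46, 1.84, 2.47 and 1.17, and without SOD1 1 of 0.40, 0.75, 0.98 and 0.65. In all 6 of these genes SOD1 1 was the highest library by a wide margin. Cyp51, described with the sterol genes, also lost part of its size without SOD1 1. Less dependent on it were Hmgcs1, described there too, and Slc26a2, a sulphate transporter, with 264, 72.3 and 60.6 CPM in SOD1 libraries, against 29.7, 46.2 and 14.7 CPM in WT libraries, and a log2 fold change of 1.34 ± 0.59 (1.18 without SOD1 1).

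The named genes on the lower side included a short RNA, histones and rapid-response genes. Rn7sk, the 7SK RNA that holds the elongation factor P-TEFb inactive, had 0, 39.9 and 32.4 CPM in SOD1 libraries, against 74.0, 126 and 51.7 CPM in WT libraries, with a log2 fold change of -1.28 ± 0.45. Junb, a subunit of the AP-1 transcription factor, had 595, 632 and 429 CPM in SOD1 libraries and 764, 1012 and 831 CPM in WT libraries, and its log2 fold change was -0.83 ± 0.33. Gadd45g, a stress-response gene, had 132, 114 and 96.4 CPM in SOD1 libraries, against 167, 206 and 182 CPM in WT libraries. In Junb and Gadd45g the SOD1 values all lay below the WT values, with 9 and 2 counts behind those of SOD1 1. For SOD1 2 and SOD1 3 the naming rule required this. The histone genes H2afj, Hist1h2br and Hist2h2aa1 had log2 fold changes of -1.21, -3.40 and -1.83, and Msln, the surface protein mesothelin, of -0.77. Rpl3-ps1, a processed pseudogene of a ribosomal protein, had 0, 3.25 and 3.21 CPM in SOD1 libraries and varied among WT libraries, with 78.5, 29.3 and 4.28 CPM. Histone copies and pseudogenes share reads with near-identical genes, so their values are uncertain, and the edgeR adjusted p was 1 for every gene named here on either side other than Sod1.

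Because SOD1 1 and the day 120 libraries spread widely, the 5 deep libraries of day 30 were also tested alone, an alternative chosen after the data were seen. The median SD within groups on the log2(CPM + 1) scale was 0.286 in these 5 libraries, against 1.45 in all 6 of day 30 and 0.846 in the 6 of day 120. With SOD1 2 and SOD1 3 against the WT libraries, edgeR called 78 of 19219 genes (0.406%), 42 higher (0.219%) and 36 lower (0.187%) in SOD1 mTECs. An unadjusted p under 0.05 was reached by 1462 genes (7.61%), 774 higher (4.03%) and 688 lower (3.58%). Of the 78, 76 had both SOD1 libraries on 1 side of all WT libraries. The calls came from these same libraries, so this is no added support. Over the 18919 genes of the 12-library fit, both lay above all WT libraries at 10.6% and below at 12.3%. The number of calls depends on how the spread is estimated. DESeq2 called 55 genes, 54 of them among the 78, while edgeR with a dispersion from the trend over genes called 2, Sod1 and Gm8566. In a test on simulated data with known answers, the fits with a dispersion per gene made more false calls than their threshold allows. The simulated counts took their spread from the 12-library fit, which is wider than that of the 5 deep libraries. They therefore do not give the share of false calls among the 78. With SOD1 1 added, the 6 libraries of day 30 alone gave 28 of 17022 genes called (0.164%), 12 higher (0.0705%) and 16 lower (0.094%), and 963 (5.66%) with an unadjusted p under 0.05, while DESeq2 called 2 in the same 6 libraries. Apart from Sod1 and Gm8566, none of the 78 was called in the fit over 12 libraries.

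The gene called higher in these 5 libraries with the smallest p after Sod1 and Gm8566, among named genes, was Lrrk2, a large kinase of lysosomes and vesicles whose mutations cause familial Parkinson disease. Lrrk2 (chr15:91673175-91816120) had 129.6 and 103 CPM in SOD1 2 and SOD1 3, against 34.0, 35.2 and 50.5 CPM in the WT libraries, and 66.1 CPM, a single count, in SOD1 1. Its log2 fold change was 1.57 ± 0.24 with an edgeR adjusted p of 3.25e-07, and between 1.41 and 1.77 with each of the 5 libraries left out in turn, called each time. Calcrl, a receptor for the peptides CGRP and adrenomedullin, had 107 and 104 CPM in SOD1 2 and SOD1 3, against 60.1, 37.5 and 25.7 CPM in the WT libraries, with a log2 fold change of 1.37 ± 0.29. Fga, Ctcfl and Cnga2 are known from single tissues. Fga, the liver-made alpha chain of fibrinogen, had 28.02 and 21.5 CPM in SOD1 2 and SOD1 3, against 8.50, 2.38 and 3.98 CPM in WT libraries. Ctcfl, a paralogue of CTCF known from the testis, had 37.02 and 22.7 CPM in SOD1 2 and SOD1 3, against 3.52, 4.55 and 10.7 CPM in WT libraries, and Cnga2, an ion channel subunit of olfactory neurons, had 57.2 and 57.6 CPM, against 17.3, 23.1 and 29.98 CPM in WT libraries. Log2 fold changes were 2.34 for Fga, 2.32 for Ctcfl and 1.32 for Cnga2. Klhl42, Adgrg7 and Clec2i completed the named genes, with 1.40, 1.94 and 1.19. The calls of Ctcfl and Fga were lost without SOD1 2 (edgeR adjusted p 0.121 and 0.0977), and those of Adgrg7 and Clec2i without SOD1 3 (0.115 and 0.177).

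The lower side of the same 5 libraries included Lama5, Tagln and Cd59a. Lama5, the laminin alpha 5 chain of basement membranes, had 44.3 and 42.8 CPM in SOD1 2 and SOD1 3, against 88.1, 83.7 and 110.1 CPM in WT libraries, with a log2 fold change of -1.09 ± 0.23. Tagln, an actin-binding protein of smooth muscle, had 34.3 and 18.8 CPM in SOD1 2 and SOD1 3, against 65.2, 64.5 and 82.0 CPM in WT libraries. Cd59a, which blocks the last step of complement attack, had 15.3 and 12.9 CPM in SOD1 2 and SOD1 3, against 38.7, 52.7 and 34.0 CPM in WT libraries. The naming rule required SOD1 2 and SOD1 3 to lie on 1 side of all WT libraries, so the lack of overlap is no result. The log2 fold changes of the 3 genes were -1.09, -1.38 and -1.55. Hist1h2br had a log2 fold change of -3.48 ± 0.56, with 1.37 and 5.19 CPM in SOD1 2 and SOD1 3, against 24.8, 46.9 and 29.1 CPM in WT libraries. Ctdspl, a phosphatase gene, Zfp949, Hist2h2aa1, Sbf1 and mt-Ts1, a mitochondrial serine tRNA, had log2 fold changes of -2.43, -1.37, -1.75, -1.22 and -1.19. Leaving out SOD1 3 ended the calls of Tagln, Hist2h2aa1, mt-Ts1 and Sbf1, leaving out WT 1 those of mt-Ts1 and Sbf1, and leaving out SOD1 2 or WT 3 that of Sbf1, with edgeR adjusted p of at most 0.0833, 0.0519, 0.135 and 0.114 for Tagln, Hist2h2aa1, mt-Ts1 and Sbf1.

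**Figure D3:**
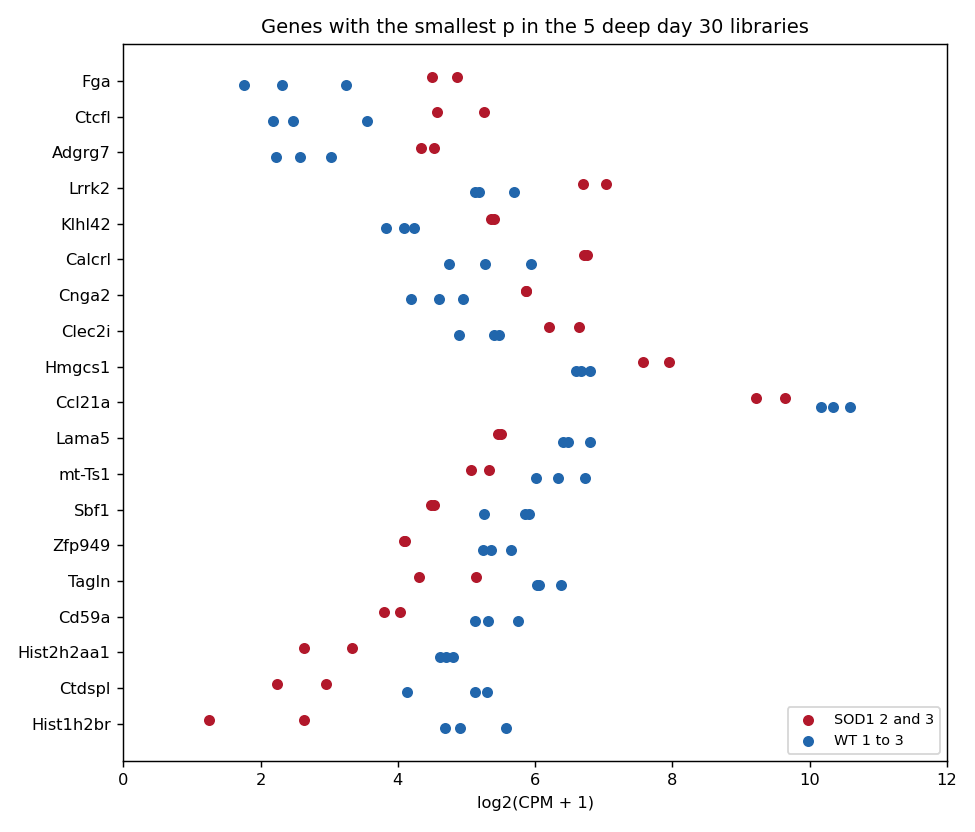
Levels as log2(CPM + 1) of the 19 genes other than Sod1 that the naming rule gave in the 5 deep mTEC libraries of day 30, with SOD1 2 and SOD1 3 in red and the 3 WT libraries in blue. In all 19 rows both SOD1 points lie on 1 side of the WT points, which the rule required.

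The gene groups are described next, each by its counts in the fit over 12 libraries and in the 5 deep libraries alone. In the 12-library fit no member of the 35 lists was called other than Sod1, among the antioxidant enzymes. Over all genes, 41.5% of log2 fold changes were positive with SOD1 1 in the fit, 52.2% without it and 49% in the 5 deep libraries alone.

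Identity genes of mTECs gave calls in the 5 deep libraries alone. Of the 18 mTEC markers none was called in 12 libraries, with a median log2 fold change of -0.22, and -0.03 without SOD1 1. In the 5 deep libraries 2 of the 18 were called lower, Ccl21a and Fgf21. Ccl21a, the CCR7 ligand that draws positively selected thymocytes into the medulla, had 793, 799 and 597 CPM in SOD1 libraries, against 1530.4, 1148 and 1299.7 CPM in WT libraries, with all SOD1 values under the WT values. Its log2 fold change was -1.08 ± 0.46 in 12 libraries (unadjusted p 0.0189, edgeR adjusted p 1) and -0.91 ± 0.18 in the 5 deep ones (edgeR adjusted p 0.000695, and 0.0782 without WT 1). Ccl21 genes have near-identical copies in the mouse genome, so reads may be shared among them. Fgf21, a hormone-like growth factor that mTECs express, had 132, 186 and 209.8 CPM in SOD1 libraries, against 397, 277 and 389 CPM in WT libraries, with -0.82 ± 0.21 in the 5 deep libraries (edgeR adjusted p 0.0207). The Fgf21 call was lost without WT 1, WT 3 or SOD1 2, with an adjusted p of up to 0.256. Ccl19, the other CCR7 ligand, had 463, 339 and 296 CPM in SOD1 libraries and 499, 328 and 424 CPM in WT libraries, which overlapped, and the remaining 12 of 14 chemokine ligands were not called in either fit. Among them Cxcl10 had 991, 606 and 616 CPM in SOD1 libraries and 657, 620.05 and 519.5 CPM in WT libraries, and Ccl25, which attracts early progenitors, had 330.4, 582 and 704 CPM in SOD1 libraries and 518, 1064 and 635 CPM in WT libraries.

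The regulators behind the mTEC programme were not called. Fezf2 had 66.1, 406 and 351 CPM in SOD1 libraries, against 442, 407 and 435 CPM in WT libraries, and SOD1 1 holds 1 count of it. Of 27 tested genes for Aire, Fezf2 and their partners, 14 had a positive log2 fold change in 12 libraries and 14 in the 5 deep ones. Hipk2, a kinase that phosphorylates Aire, had 330.4, 68.0 and 58.6 CPM in SOD1 libraries, against 53.2, 48.3 and 39.2 CPM in WT libraries, with 0.45 ± 0.23 in the 5 deep libraries. Kdm6b, a histone H3K27 demethylase, had 0, 11.6 and 12.6 CPM in SOD1 libraries, against 21.2, 25.3 and 17.1 CPM in WT libraries, with -0.81 ± 0.33. Neither passed the test. The receptor RANK, encoded by Tnfrsf11a, had 132, 297 and 257 CPM in SOD1 libraries and 218, 222 and 235 CPM in WT libraries, and the median over 17 genes of RANK, CD40 and lymphotoxin receptor signalling was -0.11, and 0.04 without SOD1 1. Foxn1, the factor that defines thymic epithelium, had 0, 189.6 and 132 CPM in SOD1 libraries and 164, 152 and 147 CPM in WT libraries.

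The list of tissue-restricted antigens, self proteins that mTECs display, gave 1 call, in the 5 deep libraries. The list is partial: Fga, Ctcfl and Cnga2, called higher in the same libraries and described above, are not on it. Of 37 tested in 12 libraries, 19 had a positive log2 fold change, with a median of 0.14, and 24 without SOD1 1. In the 5 deep libraries 23 of 38 were positive and 1 was called higher. That gene was Csn2, the milk protein beta-casein, with 1057, 1511 and 1853 CPM in SOD1 libraries, against 1076, 1099.6 and 942 CPM in WT libraries. Its log2 fold change in the 5 deep libraries was 0.71 ± 0.16 (edgeR adjusted p 0.00621, and up to 0.131 with WT 1, WT 3 or SOD1 3 left out), and SOD1 1 lay among the WT values. Fabp1, a fatty acid carrier of liver and gut, had 0, 18.4 and 35.6 CPM in SOD1 libraries, against 12.5, 6.51 and 14.1 CPM in WT libraries, and Gad1, a GABA-synthesising enzyme, had 198, 48.2 and 40.3 CPM, against 25.2, 19.9 and 40.4 CPM in WT libraries. They had log2 fold changes of 1.32 ± 0.43 and 0.67 ± 0.31 in the 5 deep libraries, with edgeR adjusted p of 0.196 and 0.586. Apob shows what SOD1 1 can do to a single gene. It had 1057, 48.8 and 34.6 CPM in SOD1 libraries, against 46.0, 39.8 and 41.9 CPM in WT libraries, with a log2 fold change of 2.19 in 12 libraries and -0.01 in the 5 deep ones. Insulin 2, Ins2, had 66.1, 36.5 and 14.6 CPM in SOD1 libraries, against 19.2, 26.2 and 16.2 CPM in WT libraries.

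Mimetic cell genes were not called in any of the 6 mimetic lists. The muscle list was the most one-sided, with 0 of 9 positive and a median of -0.74 in 12 libraries, and 1 of 9 positive and -0.45 in the 5 deep ones. Ttn, the sarcomere protein titin, had 0, 879.8 and 643 CPM in SOD1 libraries, against 1085, 693 and 1938 CPM in WT libraries, which overlap. Chrng, the fetal subunit of the muscle acetylcholine receptor, had 0, 4.37 and 5.19 CPM in SOD1 libraries, against 20.8, 6.61 and 14.99 CPM in WT libraries. Its sister subunit Chrna1, an autoantigen in myasthenia gravis, had 0, 17.6 and 14.8 CPM in SOD1 libraries, against 21.8, 19.3 and 26.9 CPM in WT libraries. For Chrng and Chrna1 SOD1 2 and SOD1 3 lay below every WT library, SOD1 1 had no count, and log2 fold changes in the 5 deep libraries were -1.55 ± 0.55 and -0.45 ± 0.31, neither called (edgeR adjusted p 0.305 and 0.836). Tuft genes leaned the same way, with 2 of 10 positive and a median of -0.23 in the 5 deep libraries, which was -0.07 without SOD1 2, -0.13 without WT 2, -0.46 without WT 1 and -0.48 without SOD1 3. Dclk1, a kinase that marks tuft cells, had 0, 63.2 and 31.6 CPM in SOD1 libraries and 61.0, 92.7 and 81.4 CPM in WT libraries, which overlap. Microfold, keratinocyte, neuroendocrine and ciliated, and gut, liver and pancreas genes had medians of 0.22, 0.03, 0.15 and 0.15 in the 5 deep libraries. These depended on single libraries: without SOD1 2 they were 0.66, -0.13, -0.13 and -0.27, and the keratinocyte median was 0.46 without WT 2. The microfold chemokine Ccl20 had 132, 190.4 and 325 CPM in SOD1 libraries, against 137, 235 and 145 CPM in WT libraries.

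Keratins, the intermediate filaments of epithelia, had negative log2 fold changes in 7 of 9 cases in both fits, and in the 5 deep libraries the median was -0.36 (-0.19 without SOD1 3), 5 of 9 had an unadjusted p under 0.05 and 1 was called. Krt7 had 529, 280 and 266 CPM in SOD1 libraries, against 539.98, 415 and 404 CPM in WT libraries, with a log2 fold change of -0.71 ± 0.19 in the 5 deep libraries (edgeR adjusted p 0.0337). The call did not hold when WT 1, WT 3, SOD1 2 or SOD1 3 was left out, with an adjusted p of up to 0.395. Krt14, a keratin of basal epithelial cells and of mTECs, had 330.4, 366 and 251 CPM in SOD1 libraries, against 526, 373 and 448 CPM in WT libraries. Its partner Krt5 had 198, 438 and 305 CPM in SOD1 libraries and 608, 393 and 512 CPM in WT libraries, which overlap, and Krt17 had 1850.02, 1669 and 1259.8 CPM in SOD1 libraries and 1789, 1970.5 and 1924 CPM in WT libraries. Krt8, the keratin of simple epithelium, had 1982, 1947 and 1887 CPM in SOD1 libraries and 2161, 2348 and 1990.2 CPM in WT libraries. Krt10 and Krt15 were the members with positive values.

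Antigen presentation genes were not called. Of 20 genes of MHC class II presentation and costimulation, 3 had a positive log2 fold change in 12 libraries and 14 without SOD1 1. H2-Ab1, a class II beta chain, had 5616, 6645 and 5623 CPM in SOD1 libraries, against 5888, 7894 and 6708 CPM in WT libraries. Cd80, a ligand of CD28 and CTLA-4, had 66.1, 76.5 and 121 CPM in SOD1 libraries and 61.7, 85.4 and 66.1 CPM in WT libraries. The groups overlapped in both. Of 13 class I genes, B2m had 7400, 8098 and 10705 CPM in SOD1 libraries and 8242, 8757 and 7076 CPM in WT libraries, and the immunoproteasome subunit Psmb8 had 66.1, 250.3 and 224 CPM in SOD1 libraries and 256, 247 and 207 CPM in WT libraries.

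Genes of cholesterol synthesis and uptake were mostly on the higher side. Cells make cholesterol from acetyl-CoA through mevalonate, and when sterol is low the factor SREBP2 enters the nucleus and raises these genes. In 12 libraries 19 of 23 had a positive log2 fold change with a median of 0.14, and 20 of 23 with 0.35 without SOD1 1; none was called. In the 5 deep libraries 20 of 23 were positive with a median of 0.31, 5 had an unadjusted p under 0.05, all higher, and 1 was called. That gene was Hmgcs1 (chr13:119690379-119708260), the synthase that makes HMG-CoA, with 132, 246 and 189 CPM in SOD1 libraries, against 100.2, 95.7 and 111 CPM in WT libraries. The SOD1 values all exceeded the WT values, though the value of SOD1 1 is 2 counts. The log2 fold change of Hmgcs1 was 0.94 ± 0.39 in 12 libraries (unadjusted p 0.0151, edgeR adjusted p 1) and 1.10 ± 0.19 in the 5 deep ones (edgeR adjusted p 2.42e-05), where it was called with each library left out in turn. Cyp51, the lanosterol demethylase, had 925, 139 and 137 CPM in SOD1 libraries, all above 89.7, 86.4 and 82.6 CPM in WT libraries, with 1.26 ± 0.51 in 12 libraries, 0.73 without SOD1 1 and 0.69 ± 0.19 in the 5 deep ones (edgeR adjusted p 0.0518).

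Other members of the pathway were less even. Idi1, an isomerase that follows the mevalonate steps, had 198, 171 and 166 CPM in SOD1 libraries, against 73.4, 72.8 and 141 CPM in WT libraries. SOD1 2 and SOD1 3 lay above the WT libraries for Idi1, with WT 3 the highest of the WT libraries. The value of SOD1 1 is 3 counts, which allow 40.9 to 579 CPM, so its place is open. Squalene epoxidase, Sqle, had 0, 171 and 148 CPM in SOD1 libraries and 122, 149.8 and 118 CPM in WT libraries, and the regulator Srebf2 had 66.1, 120.5 and 84.5 CPM in SOD1 libraries and 90.4, 88.0 and 91.5 CPM in WT libraries. By library, the median of the 23 genes relative to the mean of the WT libraries on the log2(CPM + 1) scale was 0.47 in SOD1 2 and 0.17 in SOD1 3, against -0.09, 0.00 and -0.06 in the WT libraries. Without SOD1 2 the median log2 fold change in the deep libraries was 0.16, with 14 of 23 positive.

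Promoters of Hmgcs1 and Cyp51 are shown because these were the sterol genes with the smallest p in the 12-library fit. They run from position -250 to 50 of the RefSeq start in GRCm38.p6, Hmgcs1 at chr13:119690101-119690400 on the plus strand and Cyp51 at chr5:4104648-4104947 on the minus strand. Capitals mark CACCCCAC, a core of the sterol regulatory element bound by SREBP factors, and CCAAT or its reverse ATTGG, the box bound by NF-Y. Both strands were searched, and these motifs did not overlap.
Hmgcs1 promoter: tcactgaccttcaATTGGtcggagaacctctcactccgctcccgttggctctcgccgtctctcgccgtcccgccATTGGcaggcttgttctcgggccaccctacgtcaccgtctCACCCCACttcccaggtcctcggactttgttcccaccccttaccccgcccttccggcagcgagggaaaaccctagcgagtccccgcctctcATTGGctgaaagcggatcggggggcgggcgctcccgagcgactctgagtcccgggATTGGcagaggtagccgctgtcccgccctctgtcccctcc
Cyp51 promoter: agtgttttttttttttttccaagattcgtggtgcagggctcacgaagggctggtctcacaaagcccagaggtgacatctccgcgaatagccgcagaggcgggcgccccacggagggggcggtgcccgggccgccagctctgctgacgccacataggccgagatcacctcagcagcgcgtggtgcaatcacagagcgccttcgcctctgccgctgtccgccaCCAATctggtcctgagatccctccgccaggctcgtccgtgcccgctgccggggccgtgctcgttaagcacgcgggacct
CACCCCAC was found in 1 of the 16 cholesterol genes with a RefSeq promoter, Hmgcs1, and in 3.30% of 27025 genes. CCAAT was found in 16 of 16 cholesterol genes and in 41.1% of 27025 genes. A match is a description of these letters and not a binding site.

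Fatty acid synthesis, driven by the related factor SREBP1, leaned the same way. Of 10 genes 9 were positive in 12 libraries, with a median of 0.31, and 10 of 10 in the 5 deep libraries, with 0.41 and 1 call. Without SOD1 2 the deep libraries gave 6 of 10 and a median of 0.21, and by library the median was 0.53 in SOD1 2 and 0.18 in SOD1 3, against 0.04, 0.08 and 0.05 in the WT libraries. Scd1, the desaturase that makes monounsaturated fat, had 264, 277 and 199.96 CPM in SOD1 libraries, against 141, 135 and 144 CPM in WT libraries. Its log2 fold change in the 5 deep libraries was 0.78 ± 0.19 (edgeR adjusted p 0.0173), and the call was lost without SOD1 2 or any single WT library, with an adjusted p of up to 0.272. Acly, which supplies cytosolic acetyl-CoA, had 198, 195 and 182 CPM in SOD1 libraries, against 164, 149 and 114 CPM in WT libraries, with 0.42 ± 0.20 in the 5 deep libraries. SOD1 1 holds few counts of Scd1 and Acly, so its place is open for both. Fasn, the fatty acid synthase, had 0, 51.8 and 35.6 CPM in SOD1 libraries and 45.3, 23.5 and 46.5 CPM in WT libraries, which overlap. Of 7 fatty acid genes with a RefSeq promoter, 4 held CCAAT and none held CACCCCAC.

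**Figure D4:**
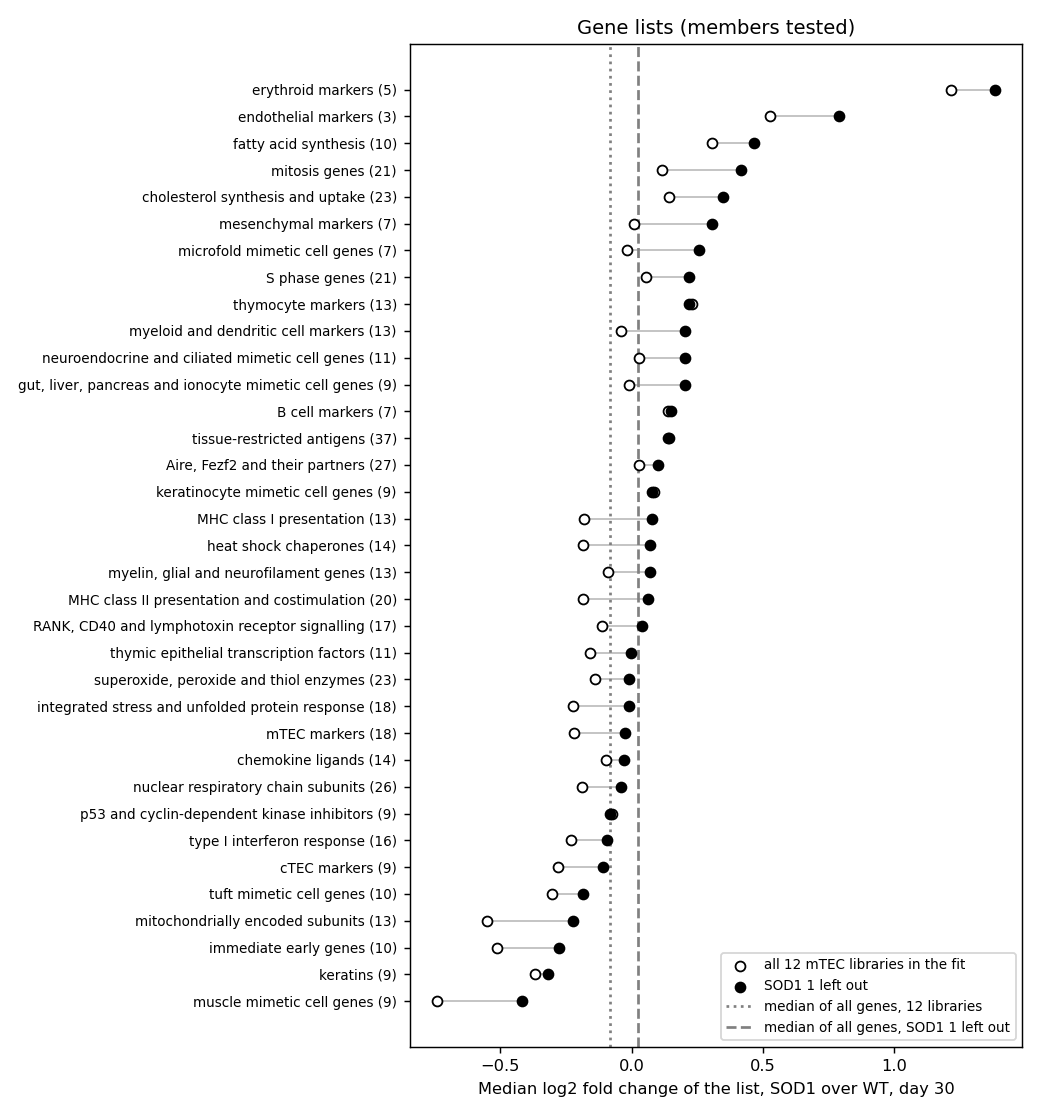
Median log2 fold change, SOD1 over WT at day 30, of the tested members of each of 35 gene lists, with SOD1 1 in the fit (open circles) and left out (filled circles). The dotted and dashed lines are the medians of all genes in the same fits, -0.08 and 0.02. Erythroid markers lie at the top and muscle mimetic cell genes at the bottom, and most open circles lie left of the filled ones.

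Antioxidant enzymes other than Sod1 were not called. Of the 23 genes for superoxide, peroxide and thiol enzymes, Sod2, the mitochondrial dismutase, had 66.1, 139 and 121 CPM in SOD1 libraries, against 125, 147 and 149 CPM in WT libraries. Ccs, the chaperone that loads copper onto SOD1, had 66.1, 26.9 and 21.3 CPM in SOD1 libraries and 23.7, 32.8 and 23.6 CPM in WT libraries. Cat, catalase, had 0, 130.5 and 84.3 CPM in SOD1 libraries and 124, 156 and 116 CPM in WT libraries. All 3 overlapped between genotypes, and so did Prdx1, Hmox1 and the regulator Nfe2l2. Prdx1, a peroxidase, had 132, 688 and 870 CPM in SOD1 libraries and 622, 653 and 629 CPM in WT libraries. Hmox1, heme oxygenase, had 0, 85.7 and 70.4 CPM in SOD1 libraries and 81.9, 70.8 and 68.5 CPM in WT libraries.

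Mitochondrially encoded subunits of the respiratory chain were all on the lower side, 0 of 13 positive in both fits, with a median of -0.55 in 12 libraries and -0.26 in the 5 deep ones. None was called, but without SOD1 2 the 12-library fit called mt-Nd4l (-3.66, edgeR adjusted p 0.0149). Mitochondrial counts made up 3.81%, 4.55% and 5.72% of the SOD1 libraries, against 6.14%, 4.83% and 7.37% of the WT libraries, so SOD1 3 lay between the WT values. mt-Co3 had 2313, 4404 and 5575 CPM in SOD1 libraries and 5612, 5178 and 8360.1 CPM in WT libraries. mt-Nd4l, a short complex I subunit, had 0, 63.2 and 7.17 CPM in SOD1 libraries and 105, 110.2 and 56.9 CPM in WT libraries. The order of groups depended on the library, since without SOD1 2 the deep libraries gave a median of -0.04 with 5 of 13 positive, without WT 3 -0.11 and without SOD1 3 -0.51. Nuclear subunits of the chain had 10 of 26 positive and a median of -0.08 in the 5 deep libraries, and 17 of 26 and 0.06 without SOD1 2. Among them Cox4i1 had 264, 321 and 294 CPM in SOD1 libraries, against 350.2, 355 and 348 CPM in WT libraries, and Uqcrc2 had 396, 168 and 209 CPM in SOD1 libraries and 179.9, 154 and 141 CPM in WT libraries.

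Immediate early genes, which cells switch on within minutes of a signal or of handling, had negative log2 fold changes in 10 of 10 cases in both fits. The median was -0.51 in 12 libraries, -0.28 without SOD1 1 and -0.31 in the 5 deep libraries, where 4 had an unadjusted p under 0.05 and none was called. Jun, the partner of Fos in AP-1, had 991, 1377 and 984 CPM in SOD1 libraries, all below 1405, 1768 and 1775 CPM in WT libraries. Junb, given above, had -0.70 ± 0.19 in the 5 deep libraries (edgeR adjusted p 0.0599), and Fos had 1057, 1178 and 1138 CPM in SOD1 libraries, all below 1296, 1665 and 1384 CPM in WT libraries. Egr1 had 859, 1102 and 1003 CPM in SOD1 libraries and 988, 1293 and 1058 CPM in WT libraries, which overlap. WT 2 was the highest library for Egr1, Fos and Junb, and without it 8 of 10 log2 fold changes were negative in the deep libraries, with a median of -0.20. The lean was not particular to mTECs of day 30. In mTECs of day 120 and in cTECs of day 30, 0 of 10 were positive, with medians of -0.32 and -0.31.

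**Figure D5:**
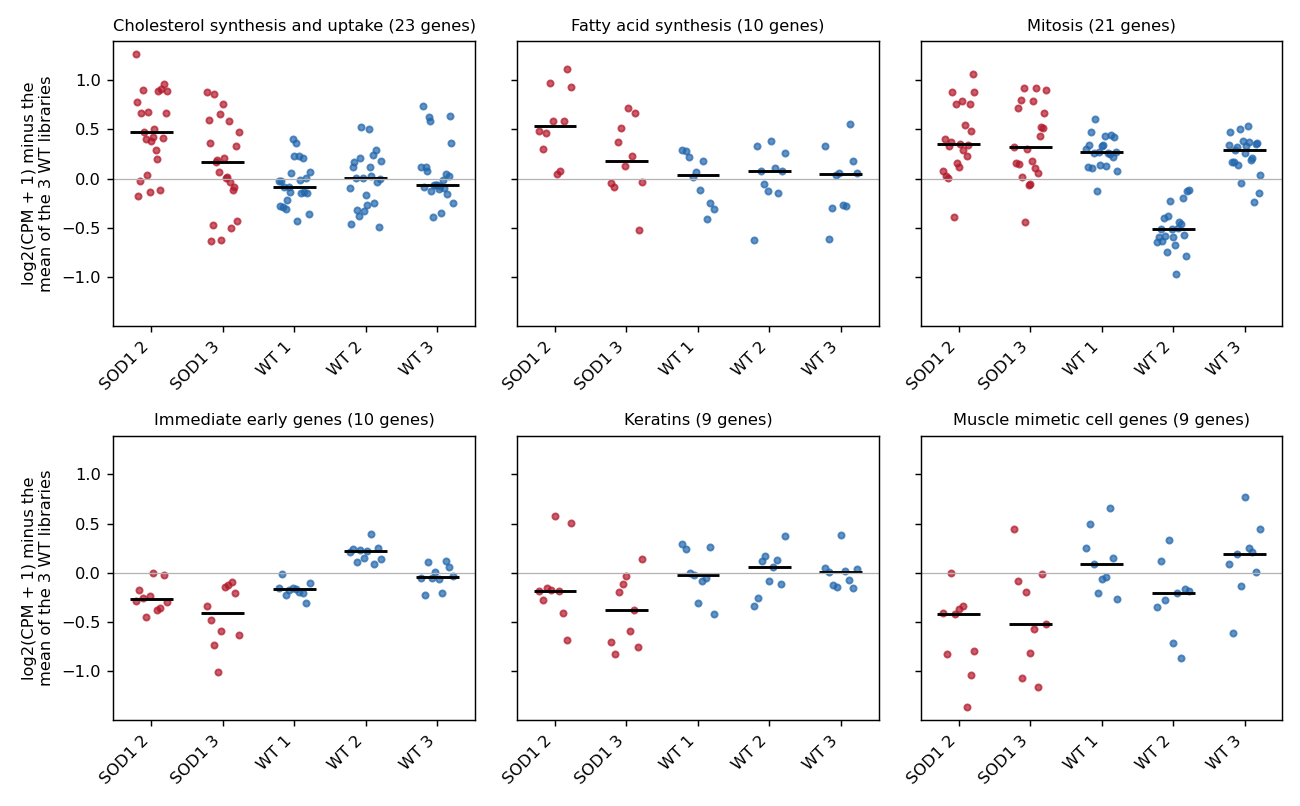
Members of 6 gene lists in the 5 deep mTEC libraries of day 30, each as log2(CPM + 1) minus the mean of the 3 WT libraries for that gene, 1 point per gene, with SOD1 libraries left in red and WT libraries right in blue. Black lines are the medians of the list. The mitosis panel shows WT 2 below the other 4 libraries, and the cholesterol panel shows SOD1 2 with the highest median, 0.47.

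Stress and interferon genes gave no call. Hspa1a, an inducible HSP70, had 1321, 1967 and 1244 CPM in SOD1 libraries, all below 2042, 2126 and 2085 CPM in WT libraries, and Hspb1, a small heat shock protein, had 595, 358 and 249.9 CPM in SOD1 libraries and 422, 506 and 369.6 CPM in WT libraries. Across 14 heat shock chaperones 8 were positive in the 5 deep libraries. Atf4, the main factor of the integrated stress response, had 198, 134 and 127 CPM in SOD1 libraries and 159, 169 and 194 CPM in WT libraries. Its target Ddit3 had 0, 18.6 and 19.8 CPM in SOD1 libraries, against 32.1, 27.0 and 28.1 CPM in WT libraries, while the chaperone Hspa5 had 2180.4, 3591 and 2871 CPM in SOD1 libraries and 2900.1, 3332 and 3623 CPM in WT libraries. Of 16 interferon response genes 6 were positive in the 5 deep libraries. Rsad2, an antiviral enzyme, had 0, 72.9 and 47.9 CPM in SOD1 libraries, against 37.5, 26.6 and 45.3 CPM in WT libraries, and Ifi27l2a had 330.4, 137 and 142 CPM in SOD1 libraries, against 238, 174 and 215 CPM in WT libraries. SOD1 2 and SOD1 3 thus lay above the WT libraries for Rsad2 and below them for Ifi27l2a.

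Proliferation genes had different values in WT 2. In the 5 deep libraries 20 of 21 mitosis genes were positive with a median of 0.37, and 18 of 21 S phase genes with 0.19, and none was called. Ccna2, cyclin A2, had 132, 61.1 and 84.3 CPM in SOD1 libraries, against 52.2, 36.3 and 59.0 CPM in WT libraries, and Mki67, the Ki-67 antigen, had 0, 50.5 and 60.1 CPM in SOD1 libraries and 59.2, 30.3 and 60.6 CPM in WT libraries. By library, the median of the mitosis genes relative to the WT mean was 0.35 in SOD1 2 and 0.32 in SOD1 3, against 0.27, -0.52 and 0.29 in the WT libraries. Without WT 2 the median log2 fold change in the deep libraries was 0.11 for mitosis genes, with 11 of 21 positive, and -0.01 for S phase genes, with 10 of 21 positive, while the mitosis median was 0.58 without WT 1 and the S phase median 0.34 without WT 3.

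Erythroid genes also held calls in the 5 deep libraries. Hbb-bs, a beta-globin, had 0, 15.6 and 47.9 CPM in SOD1 libraries, against 9.52, 6.82 and 2.45 CPM in WT libraries, and Hba-a2, an alpha-globin, had 0, 31.7 and 52.2 CPM, against 19.0, 21.8 and 13.5 CPM in WT libraries. Their log2 fold changes were 2.33 ± 0.55 and 1.21 ± 0.32 (edgeR adjusted p 0.0130 and 0.0397). SOD1 3 was the highest library for both, and without it the adjusted p was 0.728 and 0.667. The Hba-a2 call was also lost without WT 1 (edgeR adjusted p 0.149), without WT 3 (0.178), with DESeq2 (0.151) and with a trended dispersion (0.829). The globin genes have near-identical copies, and the other 3 tested members, Hba-a1, Hbb-bt and Alas2, were also positive.

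The genotype difference of day 30 was set against that of day 120 with an interaction term in the 12-library fit. The term passed for 1 of 18919 genes (0.00529%), and 934 (4.94%) had an unadjusted p under 0.05. That gene was Trim63, a ubiquitin ligase of wasting muscle also named MuRF1. Trim63 had 66.1, 11.3 and 4.45 CPM in SOD1 libraries of day 30, against 13.5, 10.5 and 10.4 CPM in WT libraries of day 30, whereas at day 120 it had 11.5, 7.34 and 10.6 CPM in SOD1 libraries and was at 0 in all 3 WT libraries. The interaction of -9.91 ± 2.0 on the log2 scale (edgeR adjusted p 0.0137) takes its size from those zeros and is no bound. With a dispersion from the trend no gene passed, while 783 had an unadjusted p under 0.05, and without SOD1 1 Trim63 and Sprr2e passed. The libraries of day 120 had 1605090 to 36919936 counts.

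Against cTECs of day 30 (3 SOD1 and 2 WT libraries), the genotype difference of mTECs differed at 69 of 19991 genes (0.345%), and 1175 (5.88%) had an unadjusted p under 0.05. Libraries of both populations may come from the same animals, which the fit did not model. The smallest p was that of Pth, parathyroid hormone. Pth had 66.1, 5.90 and 8.40 CPM in SOD1 mTECs, against 3.08, 11.2 and 3.37 CPM in WT mTECs, and 345, 95.5 and 114 CPM in SOD1 cTECs, against 0 and 0 CPM in WT cTECs. The difference thus lay in the cTEC libraries, as it did for Krt20 and Ugt1a1, which had 16.7, 6.44 and 4.78 CPM and 5.42, 4.29 and 2.30 CPM in SOD1 cTECs, against 0.219 and 0.566 CPM and 0 and 0 CPM in WT cTECs. In mTECs Krt20 had 264, 175 and 187 CPM in SOD1 libraries and 144, 217 and 150.2 CPM in WT libraries, and Ugt1a1 had 0, 30.1 and 55.6 CPM in SOD1 libraries and 32.5, 45.4 and 23.9 CPM in WT libraries. With a dispersion from the trend no gene passed, while 873 had an unadjusted p under 0.05, and DESeq2 called 5.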

How the data were processed

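The authors deposited whole-number read counts per gene for the sorted cells, 55487 Ensembl IDs, of which 55094 matched symbols of GENCODE vM21. The submitters' processing notes name mm10 and DESeq2 without a role, and the aligner, counter and strand setting were not given in the sources used here. Genotype came from sample titles, because the column names of both genotypes begin alike. Levels are CPM, computed here from the deposited counts over each library total, with a pseudocount of 1 for log2 plots.

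Counts of 12 mTEC libraries (day 30 and day 120, both genotypes) were fitted with edgeR 4.0.16 in R 4.3.3: trimmed-mean scaling, filterByExpr with a minimum count of 10, a quasi-likelihood test with a dispersion per gene, and Benjamini-Hochberg adjustment at 0.05. Log2 fold changes are SOD1 over WT, each ± SE. Alternatives were trended or shared dispersion, DESeq2 1.42.0, limma 3.58.1, other scalings and filters, a replicate block, libraries left out and the day 30 libraries alone. The shared dispersion, the 5 deep libraries alone and their variants, and the 6 libraries with trended dispersion or DESeq2, were added after seeing the data. Scripts were tested on simulated data. Intervals and the limit of 3 counts cover counting error only.

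Named genes are Sod1, Gm8566 and Aire, called genes, up to 10 per direction with the smallest unadjusted p, at least 5 CPM on average and SOD1 2 and SOD1 3 on 1 side of all WT libraries, and up to 4 members per list with the smallest p. Other list members were named for their known role after values were seen. The comparison, members and 35 lists were chosen with earlier results of these data known. Some genes and sequences are not reported here.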

Additional observations from a re-analysis of the deposited data

Results flagged for a closer look

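Trim63 was picked out because its genotype difference at day 30 differed from that at day 120 by -9.91 on the log2 scale, in a test of the difference itself (edgeR, adjusted p 0.0137 over 18919 genes). Trim63 counts were present in all 3 WT libraries of day 30 and in all 3 SOD1 libraries of both days, and absent from the 3 WT libraries of day 120. The value was -9.73 with a trended dispersion (adjusted p 0.915) and -10.19 without SOD1 1 (adjusted p 0.0238).

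Between mTECs and cTECs of day 30 the genotype difference differed at 69 genes, and Pth had the smallest p, with -13.35 on the log2 scale (edgeR, adjusted p 5.91e-13 over 19991 genes). The WT cTEC libraries, of which there are only 2, had no Pth counts, so the fitted value is no bound. The fit took the libraries of both populations as independent, though they may come from the same animals. The value for Pth was -13.50 with a trended dispersion (adjusted p 0.113) and -13.66 without SOD1 1.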

How the results depend on the processing

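The count of called genes in the 12-library fit was 2. It was 1 with a trended dispersion, with or without SOD1 1, and 4 with DESeq2, with or without SOD1 1. It was 28 in the 6 libraries of day 30 alone (5 with a trended dispersion, 2 with DESeq2) and 78 without SOD1 1. Leaving out each library in turn gave 1 to 3. Sod1 kept its direction in every alternative run, at 2.68 to 3.29 on the log2 scale with 1 library left out, and missed the threshold with a trended dispersion (2.96, and 3.29 without SOD1 1) and without any single WT library. The 78 calls of the 5 deep libraries became 2 with a trended dispersion and 71 to 180 with 1 library left out. Many of the genes called with 1 library left out were not among the 78. Of the 78, 31 of the 73 still tested were called again without WT 1. Without WT 2 it was 53 of 72, and without WT 3 it was 46 of 76. The count of 180, without SOD1 2, comes from 1 SOD1 library. Its spread within groups rests on the WT libraries alone, so it is no added support. The gene count for day 30 against day 120 was 1, then 0 with a trended dispersion, 10 with DESeq2 and 2 without SOD1 1, and that for mTECs against cTECs was 69, then 0 with a trended dispersion and 5 with DESeq2. The causes of these changes were not tested. Aire turned to 0.0085 with library totals and Apob to -0.0053 in the 5 deep libraries. Among the single genes named other than Sod1, 2203 of the values under alternatives kept direction and side of the threshold, 43 newly passed it, 2 no longer passed it (Trim63 and Pth, with a trended dispersion) and 2 turned direction.

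Deviations from the group mean had r of 0.000911, -0.00601 and 0.0169 between same-numbered libraries of the genotypes. Differently numbered libraries gave r of -0.0110 to 0.00939. The SOD1 mean includes the shallow SOD1 1, so this check could not show whether the numbers pair libraries. With the replicate block 2 genes were called and Sod1 had 2.76. The depth of SOD1 1 leaves genes under 198 CPM undetermined there, and with 2 deep SOD1 libraries the spread within SOD1 rests on 1 difference per gene.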
